A study of Caenorhabditis elegans with 23 samples.

Results

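GRTS windows are stretches of 1 kb that the authors' deposited table marks GRTS, which stands for germline nuclear RNAi-dependent transcriptional silencing. All 191 rows of the table with that mark were taken, out of 100257 windows in all, and merging those with a gap of at most 1 kb gave 80 loci. How the authors set the mark is not given in the sources used here, so whether libraries like these entered it is unknown. The levels below are RPKM, reads scaled to window length and library size. Because every window is 1 kb long, levels can be set side by side between windows, save where reads are divided between copies of a sequence.

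The study asked how silencing is rebuilt once a worm regains the nuclear RNAi machinery. The libraries held total RNA, freed of ribosomal RNA, of young adult hermaphrodites of Caenorhabditis elegans. In the 5 never-mutated libraries the hrde-1 gene was wild type, and the strains were N2 (the laboratory wild type), met-2(n4256) set-25(n5021), set-32(ok1457), set-32(red11), and a strain joining set-32(ok1457) with the met-2 and set-25 mutations. In the 5 tm1200 libraries hrde-1 carried the mutation tm1200, in strains with no other mutation, with met-2(n4256) set-25(n5021), with set-32(ok1457), with set-32(red11), and with set-32(red11) beside met-2(n4256) and set-25(n5021). In 9 libraries the hrde-1 mutation had been repaired, written hrde-1(+R), and worms were taken some generations later. Of these, 4 were set-32(+), namely generations F4 and F5 with no other mutation and F3 and F5 with met-2(n4256) set-25(n5021). The other 5 were set-32 mutants, namely set-32(ok1457) at F5 and F8, set-32(red11) at F4 and F5, and set-32(red11) beside met-2(n4256) and set-25(n5021) at F5. Values in a list follow these orders throughout. Each strain and generation had 1 library, so strains of different background served as replicates, and later generations of a repaired line come from its earlier ones. A further 4 libraries, of F20, were not analysed here.

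In the worm germline, secondary small RNAs made on a target transcript are loaded on the Argonaute protein HRDE-1, which carries them into the nucleus. There the nuclear RNAi factors lower transcription of the target and the chromatin gains methylation of histone H3 at lysines 9 and 27, and the silent state can pass to the progeny. MET-2 and SET-25 methylate lysine 9, and SET-32 is a SET-domain protein of the same nuclear RNAi pathway. Known targets include transposon remnants, pseudogenes and scattered protein-coding genes.

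The libraries were shallow, and 1 read was worth 0.867 to 2.18 RPKM, from 458753 to 1152820 reads in the denominator. The tm1200 library with set-32(ok1457) had the fewest. Levels under a few RPKM therefore rest on a handful of reads. The mutated genes followed the labels. In tm1200 libraries the hrde-1 window at III 4175001 to 4176000 had 71.1 ± 11.8 RPKM (SD, n = 5), against 224 ± 54.5 (n = 14) in the rest. At the set-32 window, I 9519001 to 9520000, the mutants ran from 0.88 to 6.94 RPKM and the other libraries from 8.28 to 16.4. The set-25 window at III 13288001 to 13289000 was at 0 in each of the 7 libraries that carry met-2 set-25. All 5 germline, 5 oocyte, 9 sperm, 5 intestine, 4 muscle, 4 neuron and 3 hypodermis markers were detected. None of them was called with tm1200 or with set-32 after repair, and no list gene was at 0 in every library. The median log2 difference of the 3 hypodermis markers with set-32 after repair was -1.42, and that of the 4 neuron markers with tm1200 was -0.71. The summed level of the sperm markers ran from 33.0 to 168 RPKM in never-mutated libraries and from 40.9 to 280 in repaired set-32 mutants, and that of the hypodermis markers from 259 to 1138 in repaired set-32(+) libraries and from 265 to 990 in repaired set-32 mutants. Of the 7 nuclear RNAi factors only hrde-1 was called, lower with tm1200, and none of the 10 heterochromatin factors or the 13 genes of small RNA synthesis was. Whether cell makeup or depth had a part in the results below was not tested.

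The GRTS windows were unevenly spread over the genome. Chromosome V held 84 of them, or 44.0%, although it holds 20.9% of all windows, and chromosome X held 0 of its 17719. Chromosome IV held 39, II held 31, I held 27 and III held 10. Cut into 3 equal parts, the chromosomes held 86 in their first, 40 in their middle and 65 in their last part. No exon was annotated in 71 GRTS windows, or 37.2%, against 23.9% of all windows. A protein-coding gene could be named in 97 and a pseudogene in 18. In 78 windows, or 40.8% against 10.8% of all windows, values were not whole multiples of 1 read, as where reads are divided between copies of a sequence. Of the 80 loci, 44 held 1 window, and the longest held 18 windows, at V 5182001 to 5201000 over C03A7.2, C03A7.13, abu-8 and Y47A7.2. The table marks 25 of the 191 windows also as GRH, a label the sources used here do not spell out, in 15 loci.

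With wild-type hrde-1 the GRTS windows were close to silent, with tm1200 they were expressed, and after repair they were silent again in set-32(+) worms but only in part in set-32 mutants. Summed over all 191 windows, the never-mutated libraries stood at 239, 198, 169, 117 and 337 RPKM. The tm1200 libraries stood at 1732, 2323, 1266, 2514 and 3453 RPKM. The lowest of them was more than every never-mutated library. Repaired set-32(+) libraries stood at 160, 204, 428 and 413 RPKM. The lines with no other mutation lay within the never-mutated range and both met-2 set-25 libraries above it, mostly through C38D9.2. Repaired set-32 mutants stood at 1466, 1324, 1296, 1312 and 1210 RPKM, above every other library with a functional hrde-1 and overlapping only the lowest tm1200 library. Their mean was 1322 ± 92.4 RPKM (SD over 5 libraries of 3 strains), against 2258 ± 830 over the 5 tm1200 strains. Since 2 of the 3 strains were taken at 2 generations, these SDs are not comparable. A level of at least 10 RPKM was reached by 2 to 8 windows in a never-mutated library, 33 to 76 in a tm1200 library, 1 to 7 in a repaired set-32(+) library and 22 to 26 in a repaired set-32 mutant.

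**Figure D1:**
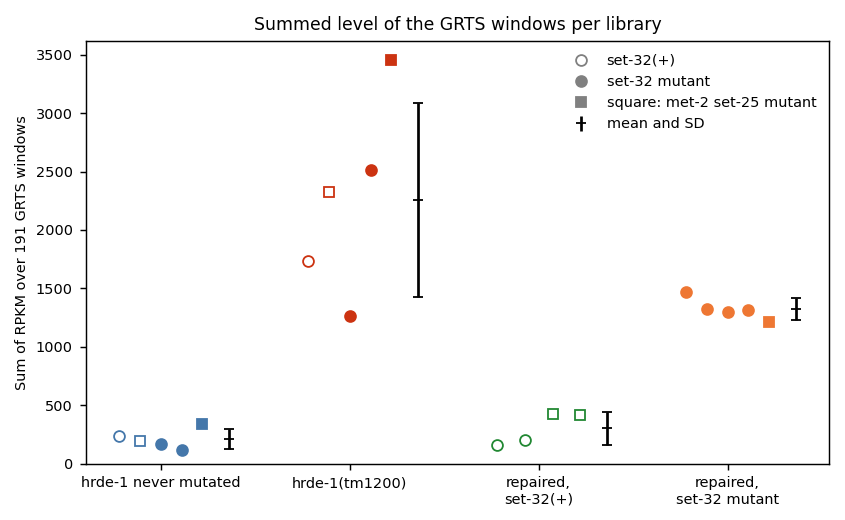
Sum of RPKM over the 191 GRTS windows for each of 19 libraries (points), by hrde-1 state, with the mean and SD of each set in black. The 5 repaired set-32 mutants sit between 1210 and 1466 RPKM, above all 4 repaired set-32(+) libraries.

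**Figure D2:**
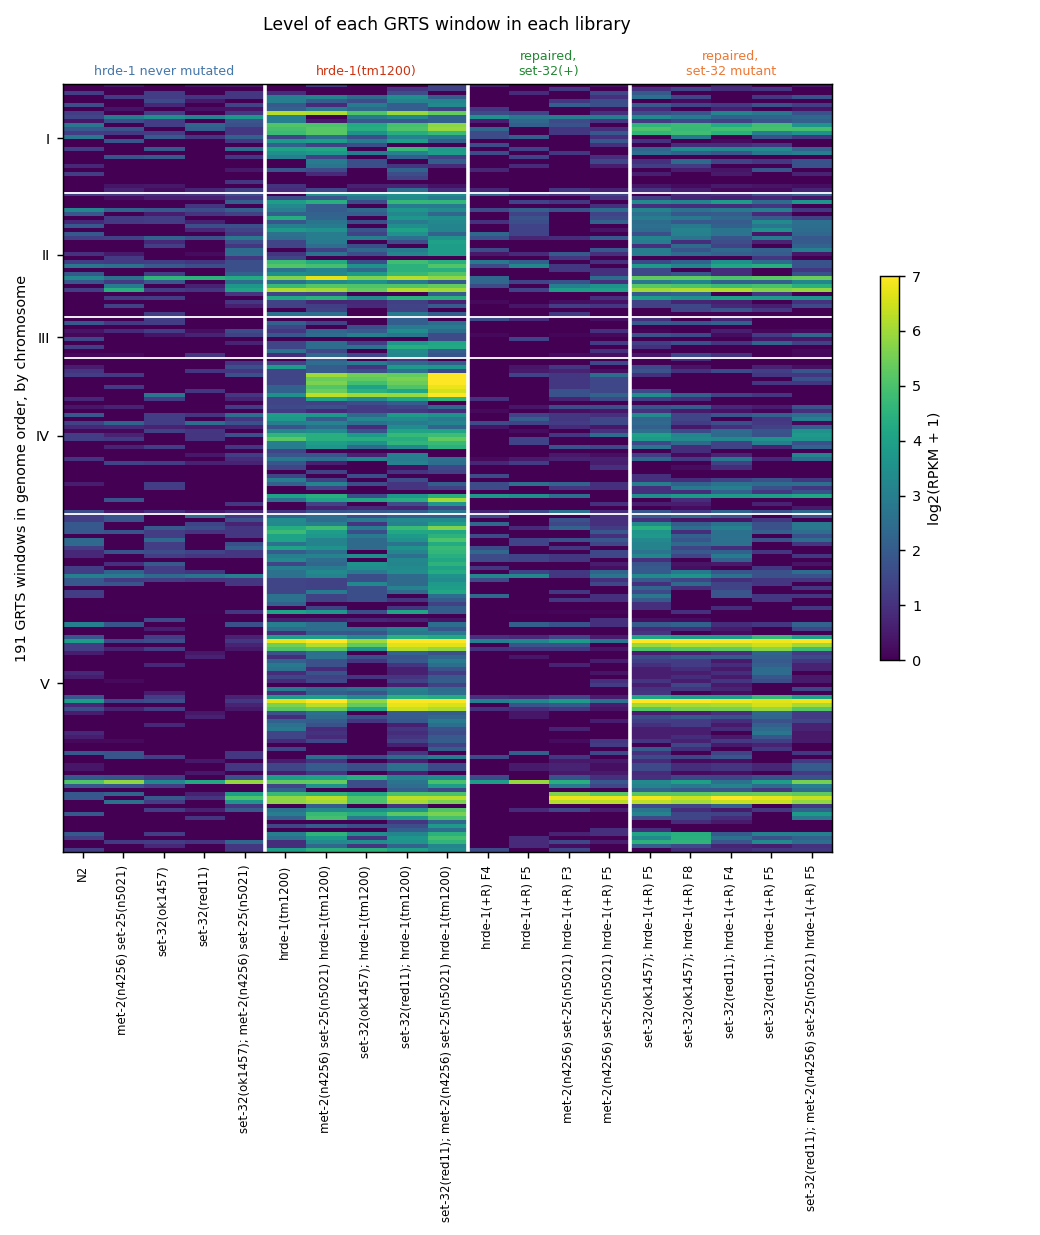
Level of each GRTS window (rows, in genome order by chromosome) in each library (columns), as log2(RPKM + 1) by colour. Bright bands in tm1200 either return in the repaired set-32 mutants, as at F07B7.1 and F07B7.2 on chromosome V, or do not, as at F58H7.5 on chromosome IV.

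Dependence on HRDE-1 was read by setting the 5 tm1200 libraries against the 5 never-mutated ones. Windows were tested if their mean over the 19 libraries reached 1 RPKM, which kept 142 GRTS windows of 57 loci among 41323 windows. Of these, 54 GRTS windows reached the minimum only through the tm1200 libraries, as did 1046 of all windows, and 16 were listed at 0 in all 5 never-mutated libraries. A window was called when limma gave a Benjamini-Hochberg adjusted p under 0.05, over all windows tested, and a change of at least 1 on the log2(RPKM + 1) scale, which understates the change of low windows. With tm1200, 65 GRTS windows in 25 loci rose and 0 fell, and of all windows tested 0.37% were called higher and 0.0242% lower. They made up 42.5% of the 153 windows that rose. Among the 65 were 18 of the windows that passed the minimum only through tm1200, which had to be higher there, and 47 others. The median log2 fold change was 2.15 over the 142 tested GRTS windows and -0.0449 over all windows tested. The first median is in part set by the minimum, since 54 of the 142 passed only through tm1200 and had to be higher there. Over all 191 windows the tm1200 mean was above the never-mutated mean in 183, and the matching share of all windows is not given here. In 85 the 5 tm1200 libraries all stood above the 5 never-mutated ones, against 0.439% of all windows in the table. In whole worms, more cells making a transcript and more transcript per cell cannot be told apart.

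The highest rise was at the paired F07B7 loci on chromosome V, which carry near-identical copies of F07B7.1 and F07B7.2. The F07B7.1 window at V 8872001 to 8873000 stood at 0.71, 0, 0, 0 and 0.58 RPKM in the never-mutated libraries and at 48.2, 76.6, 39.2, 105 and 93.7 in tm1200. Every tm1200 library was far above every never-mutated one, and the log2 fold change was 5.82 ± 0.39 (SE, limma adjusted p = 4.59e-10). Its counterpart at V 8830001 to 8831000 rose by 5.68 ± 0.40. Both copies share most reads, and their sums over the libraries differed by 1.72%, so they are 1 measurement rather than a pair. The neighbouring F07B7.2 window, V 8829001 to 8830000, had the highest level of any GRTS window in tm1200, at 115 ± 31.6 RPKM (SD, n = 5) against 3.73 ± 5.50.

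The locus of F58H7.5 on chromosome IV, IV 915001 to 922000, rose over all 7 windows. Windows among these that reached the minimum level only through tm1200 had to be higher there, and how many did was not counted. Only IV 920001 overlaps a named gene, and the locus differed most between the tm1200 strains. Its window at IV 920001 to 921000 stood at 0, 0, 5.73, 0 and 1.15 RPKM in never-mutated libraries and at 10.5, 77.4, 63.2, 59.5 and 172 in tm1200 (log2 fold change 5.06 ± 0.47, limma adjusted p = 1.17e-07). The strain with tm1200 alone was the lowest and the set-32 met-2 set-25 strain the highest. Averaged over the locus, tm1200 alone stood at 3.5 RPKM and the other tm1200 strains at 45.7, 31.1, 36.4 and 121. The terms for set-32 and for met-2 set-25 in the same fit were 1.57 ± 0.48 (adjusted p = 1) and 0.94 ± 0.48 (adjusted p = 0.871) at IV 920001, averaged over both hrde-1 states, and neither passed. WBGene00044670, annotated as a pseudogene at IV 16317001 to 16318000, had the same order at its ends. It stood at 0, 2.51, 0, 0 and 0 RPKM, then at 5.25, 15.5, 17.4, 19.5 and 64.6 in tm1200 (log2 fold change 3.89 ± 0.51, limma adjusted p = 4.2e-05). That window passed the minimum level only through tm1200 and so had to be higher there.

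Y23H5A.8 went the other way. Its window at I 2634001 to 2635000 stood at 1.42, 0, 1.43, 0 and 1.15 RPKM in never-mutated libraries and at 73.5, 69.7, 32.7, 59.7 and 39.4 in tm1200 (log2 fold change 5.01 ± 0.40, limma adjusted p = 4.85e-09). Here both set-32(+) tm1200 strains were above the 3 set-32 mutant ones. The set-32 term, averaged over the never-mutated and tm1200 libraries, was -0.32 ± 0.41 (adjusted p = 1).

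At I 4459001 to 4464000 the windows overlap eri-6, which with eri-7 encodes a helicase that acts in endogenous RNAi, and also overlap sosi-1. Use of strand is not given in the sources used here, so reads of the overlapping genes cannot be told apart. The middle window, I 4461001 to 4462000, stood at 2.83, 2.51, 0, 3.29 and 1.15 RPKM in never-mutated libraries and at 29.8, 35.6, 19.6, 32.5 and 59.9 in tm1200 (log2 fold change 3.71 ± 0.41, limma adjusted p = 3.32e-06). The groups did not overlap. The windows on either side of it rose too, by 3.43 and 3.55, but the outermost GRTS windows of the locus, I 4459001 and I 4463001, stood at 3.29 and 4.49 RPKM in tm1200 with log2 fold changes of 0.85 and 0.74 that did not pass. The rise was therefore called in the 3 middle windows of the 5. The separate GRTS window of eri-7, I 4456001 to 4457000, stood at 7.63 ± 3.91 RPKM in never-mutated and 5.03 ± 3.25 in tm1200 libraries (n = 5 each) and was not called (log2 fold change -0.68, adjusted p = 0.973).

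F15D4.5 on chromosome II was not silent in every never-mutated strain. Its window at II 13247001 to 13248000 stood at 1.42, 20.1, 1.43, 1.10 and 16.1 RPKM there, with both met-2 set-25 strains high, and at 70.0, 63.5, 39.2, 70.3 and 63.0 in tm1200 (log2 fold change 3.51 ± 0.39, limma adjusted p = 3.32e-06). The neighbouring window of F15D4.6, II 13249001 to 13250000, rose by 3.69 ± 0.48 from 0.538 ± 0.739 to 18.0 ± 5.46 RPKM. The translation factor gene ife-5, an eIF4E homologue of the germline, was the second highest GRTS window in never-mutated libraries. At II 12283001 to 12284000 it stood at 8.49, 5.02, 22.9, 21.9 and 18.4 RPKM, with the 3 set-32 mutants above both set-32(+) strains, and at 49.0, 104, 48.0, 73.5 and 56.7 in tm1200 (log2 fold change 2.17 ± 0.31, limma adjusted p = 0.000141). The set-32 difference within never-mutated libraries, taken from a fit over all 19, was 1.55 ± 0.55 and did not pass (adjusted p = 1.00).

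C38D9.2 on chromosome V was another window with 1 high never-mutated strain. At V 17570001 to 17571000 it stood at 2.83, 0, 2.87, 1.10 and 31.1 RPKM, the last in set-32(ok1457); met-2 set-25, and at 56.0, 74.3, 32.7, 77.9 and 74.0 in tm1200. Its top window, V 17571001 to 17572000, rose by 4.19 ± 0.43 (limma adjusted p = 8.01e-07). ZK262.9, at V 18440001 to 18441000, stood at 2.83, 0, 0, 0 and 0 RPKM and at 7, 24.8, 19.6, 35.7 and 47.3 in tm1200, again lowest with tm1200 alone (log2 fold change 4.18 ± 0.53, adjusted p = 2.35e-05). The pseudogene WBGene00018648, at IV 4130001 to 4131000, rose by 4.02 ± 0.43 from 0.756 ± 0.699 to 26.6 ± 9.40 RPKM. F55B11.6, at IV 14416001 to 14417000, was listed at 0 in all 5 never-mutated libraries and stood at 15.8, 20.1, 2.18, 11.9 and 20.5 RPKM in tm1200 (log2 fold change 3.65 ± 0.53, adjusted p = 0.00019). A window with no gene named, V 20465001 to 20466000, rose by 3.59 ± 0.48, from 0.514 ± 0.71 to 16.4 ± 5.30 RPKM. That window passed the minimum level only through tm1200 and so had to be higher there. Of the 65 windows that rose, the strain joining set-32(red11) with met-2 set-25 was the highest tm1200 library in 32 and set-32(red11) in 21, while set-32(ok1457), the shallowest library, was the lowest in 37 and tm1200 alone in 17.

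Lower windows followed the same test. F49F1.17, at IV 4135001 to 4136000, rose by 2.74 ± 0.49 (adjusted p = 0.00339), from 0.642 ± 0.653 RPKM to 10.5 ± 6.57. F37D6.3, at I 10487001, rose by 2.72 ± 0.53 and K09H11.11, at V 5754001, by 2.89 ± 0.56. Both windows passed the minimum level only through tm1200 and so had to be higher there. WBGene00235370, at IV 4186001, rose by 2.47 ± 0.50, to between 5.12 and 8.45 RPKM in all 5 tm1200 libraries.

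Some GRTS windows showed no call. The window with the highest level in never-mutated libraries was cth-1, for cystathionine gamma-lyase, at V 16102001 to 16103000. It stood at 32.6, 55.3, 8.60, 17.5 and 57.6 RPKM in never-mutated and at 38.5, 38.7, 2.18, 5.41 and 29.9 in tm1200 libraries (log2 fold change -0.86 ± 0.36, adjusted p = 0.808), and the groups overlapped. After cth-1, the loci highest in tm1200 without a call were W03G1.2 and W03G1.8 (2.43, adjusted p = 0.0811), the pseudogene WBGene00016072 (1.55, adjusted p = 0.604), F16B4.6 (2.14, adjusted p = 0.0582) and the pseudogene WBGene00077636 (1.40, adjusted p = 0.667). In the 18-window locus at V 5182001, 9 windows from V 5183001 to V 5195000 rose, by up to 3.33, whereas V 5196001 stood at 7.08, 6.28, 4.30, 5.48 and 6.91 RPKM in never-mutated libraries and was not called (log2 fold change -0.10). The F58D12.5 windows V 14044001 and V 14049001 held identical values in every library, 2.79 ± 1.32 RPKM in tm1200, and are 1 measurement. The chemoreceptor family gene srg-66, at V 5482001, stood at 2.74 RPKM in tm1200 and 0.284 in never-mutated libraries (1.38, adjusted p = 0.778), and the nuclear hormone receptor gene nhr-15, at V 320001, at 3.34 and 1.89 RPKM (0.77, adjusted p = 0.961). The 49 windows under the minimum never exceeded 7 RPKM in any library. Among them the tm1200 mean was above the never-mutated mean in 43, and 1 was listed at 0 everywhere. The matching share of all windows under the minimum is not given here. The 65 calls fell to 10 without the 7 met-2 set-25 libraries, to 37 with a pseudocount of 0.1 and to 7 with no minimum level.

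The next comparison asked what repair of hrde-1 did when set-32 was wild type. The GRTS windows were back near the never-mutated level. Against the 2 tm1200 set-32(+) libraries, the 4 repaired ones were lower at 31 GRTS windows in 17 loci and higher at 0, where 0.116% of all windows tested were called lower and 0.0145% higher. These were 64.6% of the 48 windows lower in all. Windows that reached the minimum level only through tm1200 had to be lower outside it on average. F37D6.3, K09H11.11, WBGene00044670 and V 20465001 are such windows, and how many of the 31 are was not counted. All 31 were among the 65 windows that rose with tm1200, and 18 of those 65 reached the minimum only through tm1200. The count of 31 is thus in part set by the minimum. Against the 2 never-mutated set-32(+) libraries, 0 GRTS windows were called by limma in either direction, as in 0% of all windows, and 6 of 142 had an unadjusted p under 0.05, where 5.96% of all windows did. In 0 of the 191 windows did the repaired set-32(+) libraries all stand above the never-mutated ones, against 0.401% of all windows. The 31 calls fell to 13 without the tm1200 library with no other mutation, to 12 without the met-2 set-25 tm1200 library, to 19 without the repaired met-2 set-25 library of F5, to 12 without all met-2 set-25 libraries and to 8 with a pseudocount of 0.1.

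The F07B7.1 window at V 8872001 fell to 0, 2.48, 2.98 and 0.46 RPKM in these repaired libraries (log2 fold change -4.86 ± 0.51, limma adjusted p = 4.36e-06). Y23H5A.8 fell to 2.02, 1.66, 0 and 0.91 RPKM (-5.20 ± 0.60, adjusted p = 1.27e-05). At ife-5 the 4 libraries stood at 4.04, 0, 0 and 4.56 RPKM, all below every never-mutated library (-4.98 ± 0.52 against tm1200, adjusted p = 4.36e-06). The difference from the never-mutated set-32(+) pair was -1.72 ± 0.52 and did not pass (adjusted p = 0.797). WBGene00018648 stood at 0, 1.66, 0 and 0 RPKM and fell by 4.45 on the log2 scale.

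Of the windows whose mean rose with tm1200 by at least 10 RPKM, 50 in all, the repaired set-32(+) libraries held a median of 0.385% of that rise, and 46 held under 10%. The exceptions were C38D9.2 and F55B11.6, and their levels split the lines in opposite ways. At V 17570001, over C38D9.2, both lines with no other mutation were listed at 0, and both met-2 set-25 generations stood at 110 and 108 RPKM, above all tm1200 libraries. F55B11.6 stood at 12.1 and 9.94 RPKM in the lines with no other mutation and at 4.76 and 0 in the met-2 set-25 ones. Each pair is 2 generations of lines with the same labels, so these splits rest on few independent worms.

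The main comparison of the study asked whether SET-32 is needed for that return to silence, setting the 5 repaired set-32 mutants against the 4 repaired set-32(+) libraries. At 8 loci, or 7 with the F07B7 copies counted as 1, windows stayed expressed in the mutants. Called higher were 19 GRTS windows and lower 0, where 0.075% of all windows tested were called higher and 0% lower. They were 61.3% of the 31 windows that rose, and 8 of the 19 lie in the F07B7 copies. All 19 reached the minimum level without the repaired set-32 mutants as well. In 47 of all 191 windows the 5 mutants all stood above the 4 set-32(+) libraries, against 0.503% of all windows. The mutant mean was the higher in 152 of the 191, and the matching share of all windows is not given here. The median log2 fold change was 1.01 over the 142 tested GRTS windows and 0.0305 over all windows tested. All 19 were among the 65 that rose with tm1200, a comparison of other libraries. Generations of 1 strain entered the fit as independent libraries, so its p-values may be too small.

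F07B7.1 and F07B7.2 stood at about their tm1200 level in repaired set-32 mutants. The F07B7.1 window at V 8872001 stood at 65.1, 67.1, 69.8, 91.1 and 67.1 RPKM in the repaired set-32 mutants, beside 0 to 2.98 in repaired set-32(+) libraries (log2 fold change 5.14 ± 0.39, limma adjusted p = 4.18e-07). The sets were far apart with either set-32 allele, but this window lost its call with ok1457 as the only one. Its copy at V 8830001 rose by 5.24 ± 0.41 (adjusted p = 5.62e-07). The F07B7.2 window at V 8829001 stood at 134, 130, 123, 115 and 123 RPKM against 7.07, 8.28, 13.1 and 5.47. The F07B7 windows made up 34.3% to 45.6% of the summed GRTS level in each repaired set-32 mutant and 19.4% to 28.4% in tm1200.

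F15D4.5 stood at 63.2, 71.0, 69.4, 49.6 and 57.0 RPKM in the repaired set-32 mutants and at 0, 1.66, 14.3 and 14.6 in repaired set-32(+) libraries, with both met-2 set-25 libraries the higher (log2 fold change 4.16 ± 0.47, limma adjusted p = 0.000169). The mutants were at the tm1200 level and above every set-32(+) library. F15D4.6 stood at 13.6, 10.5, 14.8, 12.7 and 11.9 RPKM, against 0, 0, 0 and 0.91 (3.60 ± 0.45, adjusted p = 0.000561).

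The eri-6 and sosi-1 window at I 4461001 stood at 32.1, 25.4, 28.6, 30.0 and 29.7 RPKM in the mutants and at 4.04, 0, 1.19 and 0.91 in set-32(+) libraries (3.79 ± 0.43, limma adjusted p = 0.000169). Its flanks at I 4459001 and I 4463001 again showed no call. At ife-5 the mutants stood at 37.9, 37.1, 32.1, 35.8 and 41.6 RPKM (4.08 ± 0.50, adjusted p = 0.000417), below all 5 tm1200 libraries and above all never-mutated ones. WBGene00018648 stood at 12.6, 9.2, 8.67, 10.96 and 11.3 RPKM (3.06 ± 0.48, adjusted p = 0.00829), also below every tm1200 library. That call was lost without the repaired F4 library with no other mutation or without set-32(red11); met-2 set-25, with adjusted p up to 0.0979.

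When 1 library was left out, the calls at C38D9.2 and at an unnamed GRTS locus, V 20296001 to 20299000, were the least firm. Other settings weakened the other loci too. With no minimum level the top window of every called locus lost its call. With ok1457 as the only set-32 allele, only those of F15D4.5 and C38D9.2 kept it. C38D9.2 at V 17570001 stood at 115, 86.8, 131, 105 and 81.9 RPKM in the mutants, all above every tm1200 library, while the set-32(+) libraries spanned 0 to 110 (4.38 ± 0.81, limma adjusted p = 0.0448). It lost its call without any 1 of the 6 repaired libraries that have wild-type met-2 and set-25, with adjusted p up to 0.458. The unnamed window V 20296001 stood at 16.04, 20.2, 3.04, 7.5 and 7.12 RPKM against at most 0.91 in set-32(+) libraries (3.00 ± 0.56, adjusted p = 0.0457). Both set-32(ok1457) generations were above the 3 set-32(red11) libraries, and leaving out any repaired library but set-32(red11) F4 ended the call, with adjusted p up to 0.226. The 19 calls became 6 with ok1457 as the only set-32 allele, 12 with red11 as the only one, 11 with a pseudocount of 0.1 and 5 with no minimum level.

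**Figure D3:**
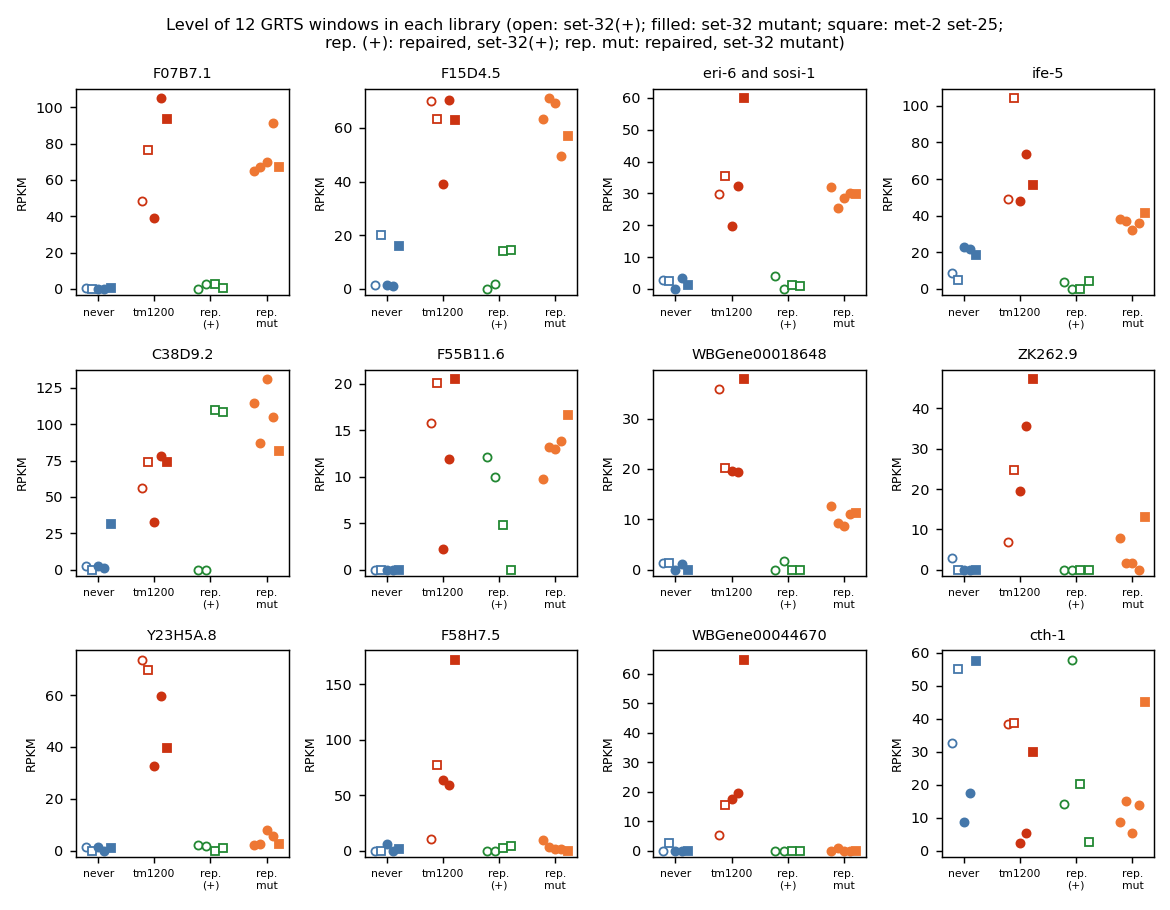
RPKM at 12 GRTS windows, 1 panel each, in the never-mutated, tm1200, repaired set-32(+) and repaired set-32 mutant libraries (1 point a library). F07B7.1, C38D9.2, F15D4.5 and the eri-6 window stay high in the repaired set-32 mutants, whereas Y23H5A.8, F58H7.5 and WBGene00044670 are low there.

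The effect of set-32 without repair was fitted as 1 term over the 10 never-repaired libraries, 5 never-mutated and 5 tm1200. No GRTS window was called by limma in either direction, as in 0% of all windows, and 12 of the 142 had an unadjusted p under 0.05, against 3.55% of all windows. Within the 5 never-mutated libraries, a contrast added after seeing the data and taken from the fit over all 19, limma called 0 as well, and 5 of the 142 had an unadjusted p under 0.05, against 3.14% of all windows. The difference between both set-32 effects was then tested in 1 fit over the 19 libraries. The effect after repair exceeded that with hrde-1 never mutated at 9 GRTS windows in 5 loci, or 4 with the F07B7 copies counted as 1, where 0.029% of all windows were called higher. These were 75% of the 12 windows called. Of the 9 windows, 6 lie in the F07B7 copies (5.70 ± 0.71 at V 8830001, adjusted p = 9.96e-05). The others lie at eri-6 with sosi-1 (4.64 ± 0.74, adjusted p = 0.00435), F15D4.5 (4.54 ± 0.83, adjusted p = 0.0256) and WBGene00018648 (4.01 ± 0.75, adjusted p = 0.0328). The call at eri-6 was lost without N2 (adjusted p = 0.0908), that at F15D4.5 without any 1 of 9 libraries and that at WBGene00018648 without any 1 of 14. At F15D4.5 these were never-mutated met-2 set-25, set-32(ok1457) and set-32(red11) and the 6 repaired ones with wild-type met-2 and set-25 (adjusted p up to 0.658). At WBGene00018648 they were all but never-mutated set-32(red11), repaired F5 with no other mutation, and 3 tm1200 libraries, namely met-2 set-25, set-32(ok1457) and the strain that joins set-32(red11) with met-2 set-25 (adjusted p up to 0.285). At ife-5 and C38D9.2 the difference did not pass (2.50 ± 0.69 and 1.86 ± 1.41 at V 17570001, adjusted p = 0.999 for both). The 9 calls became 4 without windows of divided reads, 3 with a pseudocount of 0.1 and 0 with ok1457 as the only set-32 allele.

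Repaired set-32 mutants were also set against never-mutated and against tm1200 set-32 mutants, comparisons that share the repaired libraries with the one above. Against the 3 never-mutated ones, 21 GRTS windows in 9 loci were higher and 0 lower, where 0.128% of all windows tested were called higher and 0.00968% lower. In 50 of the 191 windows the repaired set-32 mutants all stood above the 5 never-mutated libraries, against 0.382% of all windows. The largest difference was at F07B7.2, V 8829001 (6.04 ± 0.40, limma adjusted p = 1.58e-10), followed by F07B7.1 at V 8872001 (5.99 ± 0.43). C38D9.2 at V 17571001 was higher by 4.85 ± 0.78, F15D4.5 by 4.03 ± 0.53 and eri-6 with sosi-1 by 3.87 ± 0.48. The C38D9.2 call was lost without set-32(red11) (adjusted p = 0.0692). At ife-5, where never-mutated set-32 mutants already stood at 18.4 to 22.9 RPKM, the difference was 0.79 ± 0.44 and did not pass (adjusted p = 1).

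Other loci that rose with tm1200 stood below that level in repaired set-32 mutants. Against the 3 tm1200 set-32 mutants, 15 GRTS windows in 7 loci were lower and 0 higher, where 0.0944% of all windows tested were called lower and 0.00968% higher. None of these was among the 19 called for set-32. Windows that reached the minimum level only through tm1200 had to be lower outside it on average. WBGene00044670, WBGene00012798 and V 20465001 are such windows, and how many of the 15 are was not counted. All 15 were among the 65 windows that rose with tm1200, 18 of which reached the minimum only through it. This count too is in part set by the minimum. In the F58H7.5 locus all 7 windows fell, by 3.51 to 5.45 on the log2 scale. IV 916001 to 917000, in that locus, stood at 1.75, 40.2, 37.1, 47.6 and 137 RPKM in tm1200 and at 0, 0, 0, 0 and 2.37 in repaired set-32 mutants (log2 fold change -5.45 ± 0.57, limma adjusted p = 5.26e-06). Only 1 of the 5 repaired mutants had a value there, and the window reached the minimum level only through tm1200.

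WBGene00044670 stood at 0, 0.88, 0, 0 and 0 RPKM in repaired set-32 mutants (-4.60 ± 0.54, adjusted p = 1.99e-05). WBGene00012798, a protein-coding gene at III 13240001 to 13241000, stood at 1.75, 4.64, 5.09, 19.5 and 17.9 RPKM in tm1200 and at 0.97, 0, 0, 0 and 0 in these mutants (-3.53 ± 0.54, adjusted p = 0.00127). At both genes the repaired mutants lay within the never-mutated range. Y23H5A.8 stood at 2.07, 2.63, 7.81, 5.77 and 2.37 RPKM (-3.28 ± 0.50, adjusted p = 0.00127), with all 5 repaired mutants below the lowest tm1200 library and above the highest never-mutated one. The pseudogene WBGene00014814, at II 10939001 to 10940000, fell by 3.29 ± 0.60 (adjusted p = 0.0097), and lost its call without either set-32(red11) tm1200 library (adjusted p up to 0.128). Windows of abu-8, a gene of a family induced when the unfolded protein response is blocked, and V 20465001 made up the rest. The 15 calls fell to 6 without the met-2 set-25 libraries, to 5 with a pseudocount of 0.1 and to 0 with ok1457 as the only set-32 allele, and rose to 26 without limma's trend.

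For the 50 windows that gained at least 10 RPKM with tm1200, the mean of the repaired set-32 mutants held from -1.36% to 174% of the gain, with a median of 37.5%. At the top window of each of 20 loci, 4 held at least 90%, 4 from 50% to 90%, 6 from 10% to 50% and 6 under 10%. The 4 highest were C38D9.2 (141% ± 25.3, SD, n = 5), both F07B7 loci (99.3% ± 14.9 and 99.0% ± 14.4, which are 1 measurement) and F55B11.6 (94.2% ± 17.5). The eri-6 window held 81.2% ± 7.28, F15D4.6 69.6% ± 9.26, ife-5 42.3% ± 6.75 and WBGene00018648 37.9% ± 6.25. The top window of the F15D4 locus is that of F15D4.6, and the F15D4.5 window of the same locus held 102%. Others were intermediate with a wider range. C40A11.7 with C40A11.8, at II 2150001, ran from 24.2% to 78.9%, and the glutathione peroxidase family gene gpx-8, at I 10782001, from 25.4% to 69.6%. The C04G6.15 window at II 5098001 ran from 2.49% to 50.6% and ZK262.9 from -2.15% to 47.5%. At the low end, Y23H5A.8 held 6.14% ± 4.69, F58H7.5 2.46% ± 5.12, V 20465001 1.91% ± 3.02 and T09F5.12 with srz-11, at V 15164001, 0.105% ± 4.95.

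**Figure D4:**
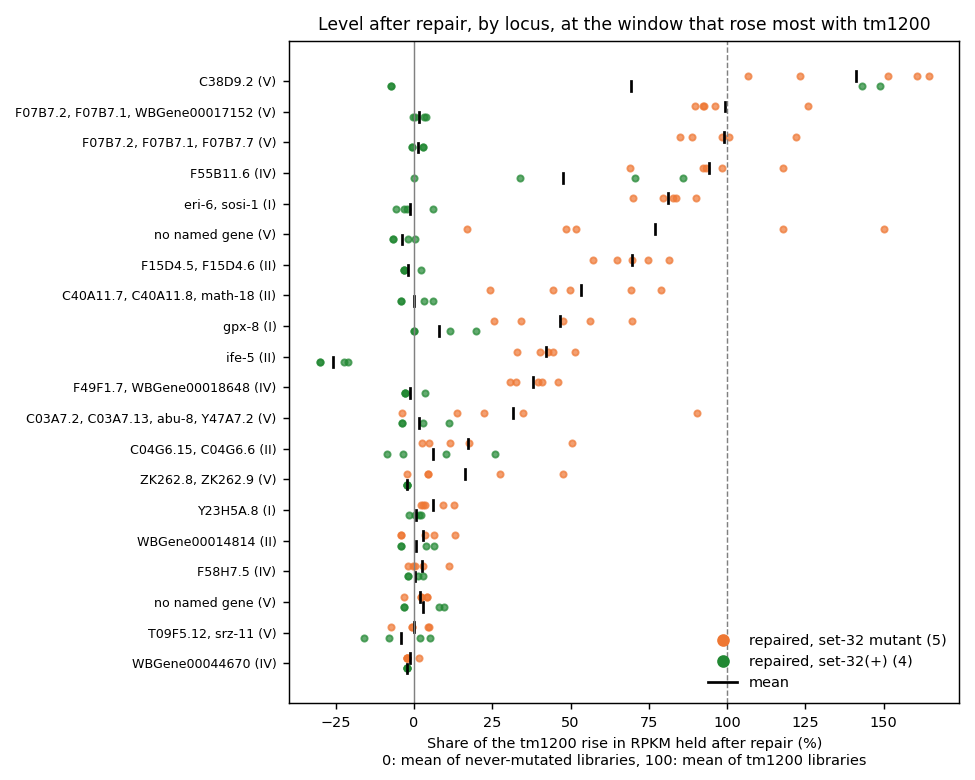
Share of the tm1200 rise in RPKM held after repair at the window of each of 20 loci that rose most, for the 5 repaired set-32 mutants (orange) and the 4 repaired set-32(+) libraries (green), with means as bars. The mutants spread from near 0% (WBGene00044670) to above 100% (C38D9.2), while the set-32(+) means stay under 10% at 18 of 20 loci.

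Within the 18-window locus at V 5182001, 1 repaired set-32 mutant differed from the rest. The mean over its windows was 6.59 RPKM in set-32(ok1457) F5 and 2.82, 3.49, 1.09 and 2.00 in the others, against 4.67 to 20.01 in tm1200 and 0.853 to 2.05 in never-mutated libraries. At the C03A7.13 window V 5183001 to 5184000 it stood at 19.9 RPKM, and the others at 4.82, 7.37, 2.31 and 5.94. By F8 the same strain was within the range of the other repaired mutants. For all 191 windows the set-32(ok1457) sum was 1466 RPKM at F5 and 1324 at F8, and the set-32(red11) sum was 1296 at F4 and 1312 at F5.

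The GRH mark was set beside these calls. Of 21 tested windows with both marks, 15 rose with tm1200 and 10 were higher with set-32 after repair, and 1 was below tm1200 in repaired set-32 mutants. Of 121 GRTS windows without the GRH mark, these numbers were 50, 9 and 14. By locus, 7 of the 8 called for set-32, 5 of the 5 called for the difference of set-32 effects and 1 of the 7 that fell held a GRH window, against 12 of the 57 loci with a tested window. With the F07B7 copies counted as 1, the first 2 counts are 6 of 7 and 4 of 4. The 1 that fell was Y23H5A.8, and the 1 called for set-32 without the mark was C38D9.2. This split was noticed in the data and has no test. How the GRH mark was set is not given, and these libraries may have entered it.

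**Figure D5:**
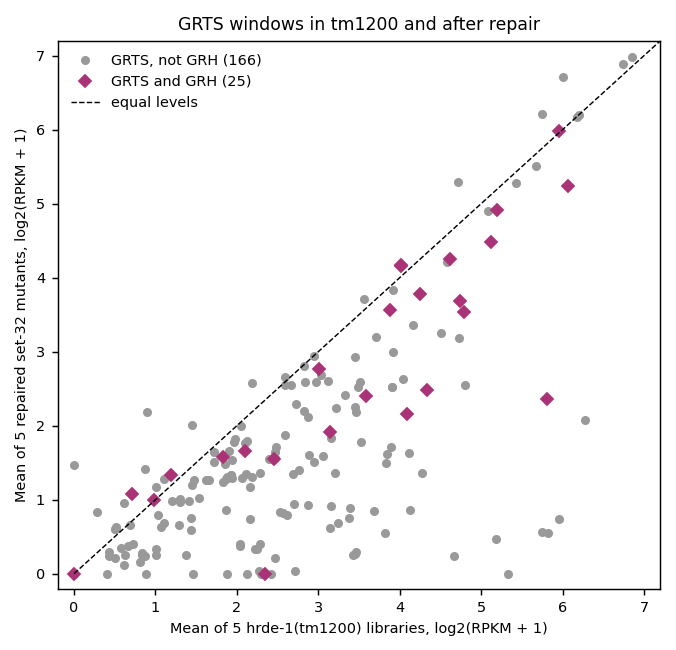
Mean of 5 tm1200 libraries (horizontal) and mean of 5 repaired set-32 mutants (vertical) for the 191 GRTS windows, as log2(RPKM + 1), with the line of equal levels. Windows with the GRH mark are diamonds, and the F58H7.5 windows at the lower right lie far below the line.

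The effect of met-2 set-25 was fitted beside the others. Among never-repaired libraries no GRTS window was called by limma, where 0.0581% of all windows were called higher and 0.0121% lower. An unadjusted p under 0.05 was reached by 18 of 142, against 5.82% of all windows. Among repaired libraries 0 GRTS windows were called, where 0.00484% of all windows were called higher and 0.0218% lower, and 14 had an unadjusted p under 0.05, against 6.15%. At C38D9.2 the term was 3.59 ± 0.85 at V 17570001 (adjusted p = 0.37). This fit assumes 1 met-2 set-25 effect for both set-32 states. Without the repaired library that joins set-32(red11) with met-2 set-25 the term rests on set-32(+) libraries only. Then 4 GRTS windows were called, the 3 of C38D9.2 (6.78 on the log2 scale at V 17570001, adjusted p = 3.21e-09) and F15D4.5 at II 13247001 (3.24, adjusted p = 0.00405). With ok1457 as the only set-32 allele, which leaves out the same library, the 3 windows of C38D9.2 were called. The summed GRTS level of never-mutated libraries was 198 and 337 RPKM with met-2 set-25 and 117 to 239 without, so these ranges overlapped. In repaired set-32(+) libraries it was 413 and 428 RPKM with met-2 set-25 and 160 and 204 without, and the ranges did not overlap. Most of that gap lay at C38D9.2. Its 3 windows averaged 42.2, 109 and 75.2 RPKM in the repaired set-32(+) libraries with met-2 set-25 and 0 in those without. Each side is 2 generations of lines with the same labels.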

How the data were processed

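The authors' deposited RPKM values for 1 kb windows came from 19 libraries of total RNA depleted of ribosomal RNA and not selected for poly(A), per the labels' protocols. The submitters' processing notes name Bowtie 0.12.7. Not given in the sources used here are the genome build, the treatment of reads with several matches, the use of strand and the rule for the GRTS and GRH marks. Of the table's columns, 24 hold values of other samples and were not used.

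Depth was read from the steps between low values. In each library 78.9% to 84.5% of values were whole multiples of 1 read within 0.0051 RPKM, so no count test was run. Positions are the table's own and start from 1. Gene names come from Ensembl's WBcel235 annotation with an overlap of at least 250 bp. In 199 of 201 segments of 500 windows, level tracked its exon density best at a shift of at most 300 bp. That correlation was weak in places, as at V 17000 kb (-0.14). It was 0.15, 0.12 and 0.12 in the segments of cth-1, C38D9.2 and ZK262.9, so names there are less sure. On V the segments at 19500 and 20500 kb did not match, and that at 20000 kb had a correlation of 0.049. Windows on V from 19500 kb are not named. No sequence is printed, since no genome of a matching build was used here.

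Tests used limma 3.58.1 (lmFit, then eBayes with a trend) under R 4.3.3. Values were log2(RPKM + 1), with a minimum mean of 1 RPKM, over all 41323 windows kept. The 10 never-repaired libraries were fitted with terms for hrde-1, set-32 and met-2 set-25, the 9 repaired ones with terms for set-32 and met-2 set-25, and comparisons between them over all 19. Nothing in the labels ties libraries to separate cultures, so p-values measure only the spread between these libraries. Generations of 1 repaired strain were fitted as independent, so p-values that use repaired libraries may be too small. The fits were also run on simulated independent libraries in which only the repaired set-32 mutants changed. That run does not bear on related generations or on strain background.

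Named were the 12 loci that rose most with tm1200, every locus called for set-32 after repair, the 5 furthest in each other comparison with calls, and the 5 highest in never-mutated libraries and in tm1200 libraries without a call. Windows named for illustration beyond these were chosen after their values were seen. The members, lists and rules were chosen with earlier results of these data known. Alternatives covered the pseudocount, the minimum level, scaling, the trend, single set-32 alleles, the met-2 set-25 libraries and each library left out, and, added after seeing the data, windows of divided reads and set-32 within never-mutated libraries.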

Additional observations from a re-analysis of the deposited data

Results flagged for a closer look

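In sets of 4 or 5 libraries, 68 combinations of a named window and a set were checked for 1 library far from the rest, and 11 had one, where chance gives about 3.4. The F07B7.1 window at V 8872001 stood at 91.14 RPKM in set-32(red11) F5, against 65.14 to 69.83 in the other repaired set-32 mutants. F58H7.5 at IV 920001 stood at 5.73 RPKM in never-mutated set-32(ok1457), against at most 1.15. C38D9.2 at V 17570001 stood at 31.1 RPKM in never-mutated set-32(ok1457); met-2 set-25, against at most 2.87. F15D4.5 at II 13247001 stood at 39.24 RPKM in tm1200 set-32(ok1457), the shallowest library, against 63.02 to 70.31.

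WBGene00044670 at IV 16317001 stood apart in 3 sets, at 2.51 RPKM in never-mutated met-2 set-25, at 64.59 in tm1200 set-32(red11); met-2 set-25 and at 0.88 in repaired set-32(ok1457) F8. The first and the last of these, and the remaining 4, differ from their sets by about 1 or 2 reads. The remaining 4 are ZK262.9 at V 18440001 (2.83 RPKM in N2), WBGene00018648 at IV 4130001 (1.66 RPKM in repaired hrde-1(+R) F5), F15D4.6 at II 13249001 (0.91 RPKM in repaired met-2 set-25 F5) and V 20465001 (0 RPKM in repaired set-32(ok1457) F5, against 0.87 to 1.19).

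The set-32 effect after repair differed from that with hrde-1 never mutated at 9 windows. On the log2(RPKM + 1) scale the difference was 5.55, 5.70 and 4.73 at V 8829001, V 8830001 and V 8831001 over F07B7.2 and F07B7.1, and 5.49, 5.29 and 5.21 at their copies V 8871001, V 8872001 and V 8873001. It was 4.64 at I 4461001 over eri-6 and sosi-1, 4.54 at F15D4.5 and 4.01 at WBGene00018648.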

How the results depend on the processing

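Of 20 counts of called GRTS windows, 14 were 0. For the 6 above 0, 27 of 146 recomputed values moved by over 1.5 times. For tm1200 the 65 higher windows numbered 37 when the pseudocount was 0.1, 19 at a lower minimum of 0.2 RPKM, 7 at no minimum and 10 without met-2 set-25 libraries, and 50 to 73 with 1 library left out. For set-32 after repair the 19 became 11, 9 and 5 under the same first 3 settings, 11 without the trend, 6 with ok1457 alone, 12 with red11 alone, 13 without divided reads and 15 to 18 with 1 library left out. For repaired against never-mutated set-32 mutants the 21 became 11 with the pseudocount, 9 with ok1457, 6 with red11, 13 without divided reads and 15 to 22 with 1 library left out. For repaired against tm1200 set-32 mutants the 15 lower became 5 with the pseudocount, 26 without the trend, 0 with ok1457, 6 without met-2 set-25 and 11 to 17 with 1 library left out. For set-32(+) the 31 lower became 8 with the pseudocount, 19 with no minimum, 12 without met-2 set-25 and 12 to 33 with 1 library left out. The 9 for the difference of set-32 effects became 3 with the pseudocount, 0 with ok1457, 4 without divided reads and 6 to 9 with 1 library left out. For met-2 set-25 after repair the 0 became 1 with no minimum, 3 with ok1457 alone and 0 to 4 with 1 library left out, and without repair 0 to 1. Lower minimums test more windows, and single alleles use fewer libraries. The cause of the other shifts was not tested. Over 40 called results of single windows, 800 of 938 values kept their call, 138 lost it and 0 reversed, and 11 results never lost it. No paired analysis was possible because the labels give no replicate numbers, other than a pairing by strain: with the 4 backgrounds present with and without tm1200 as a block, the 65 became 52. Levels near 1 read, up to 2.18 RPKM, cannot be told from 0 at this depth.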
